A study of Mus musculus with 10 samples.

Results

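Semaphorins are membrane-bound or secreted signalling proteins first described as repellents of growing axons. They act through plexins, alone or together with neuropilins, and the same proteins are used by lymphocytes, dendritic cells and endothelium for contact signals and cell movement. Netrin receptors of the UNC5 family and the receptor tyrosine kinase RET, which is engaged by ligands of the GDNF family with a GFRα co-receptor, belong to other guidance systems of the nervous system. The 10 genes described here, of 55359 genes in the counts table, are the semaphorin ligands Sema3b, Sema4a, Sema4b, Sema4d, Sema6d and Sema7a, the plexin gene Plxnd1, the neuropilin gene Nrp1, the netrin receptor gene Unc5c and Ret. The 10 genes were chosen by name with the levels and fold changes of these libraries already known, so their values in all 5 groups are given as a description, with no p-value. All 10 reached the count needed for testing and all 10 are among the 13225 genes of the log2 table that the authors deposited.

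The cells came from spleens of pmel-1 mice, which carry a transgenic T cell receptor for the melanoma antigen gp100. They were stimulated for 48 h with the human gp100 antigen, kept for a further 48 h in human IL-2 and then electroporated, and RNA was taken 24 h after that. The 5 groups hold 2 libraries each, and all of them share this stimulation: cells labelled WT that were not electroporated (NoEp), electroporated cells labelled Mock, and cells that received mRNA coding for a decoy-resistant form of IL-18 (the DRIL18 group), for IL-12 as a single chain (the IL12 group), or for these cytokines together (the mixture group). The sources used here name neither an mRNA for the Mock cells nor a sort of the spleen cells. Library totals lay between 31281944 and 35062545 counts. Reads of Il18 stood between 1.73 and 2.32 CPM (counts per 1e6 library counts, scaled with TMM) in NoEp, Mock and IL12 and between 361 and 412 CPM in DRIL18 and the mixture, which checks the labels for the IL-18 mRNA only and does not tell IL12 from Mock or NoEp, or the mixture from DRIL18. The table does not separate electroporated message from endogenous transcript. The labels call the libraries biological replicates without naming animals, so the p-values below rest on the spread among these libraries, which may be technical.

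The labelled cell type was checked first, since semaphorins and their receptors are known from many cells. The 7 T cell and CD8 genes listed (Cd3d, Cd3e, Cd3g, Cd8a, Cd8b1, Thy1, Trac) summed to between 4264 and 4323 CPM in Mock and 2910 to 2921 CPM in the mixture. Of 6 endothelial genes only Pecam1, which T cells also express, passed the filter on low counts, with Cdh5 and Emcn at 0 in all libraries and sums between 89.2 and 119 CPM. The 6 macrophage and monocyte genes summed to between 0.356 and 2.06 CPM, with Mertk at 0 in all libraries, and the 5 NK cell genes to between 0.346 and 1.26 CPM. The neuronal genes Rbfox3 and Syt1 had 0 counts in all libraries. Genes of B cells were present, at 677 to 679 CPM in Mock, 436 to 470 CPM with IL12 and 540 to 556 CPM in the mixture, mostly from Ighm. The 6 listed genes of CD4 and regulatory T cells, of which Ctla4 was the most abundant, summed to 248 to 257 CPM in Mock, 348 to 355 CPM with IL12 and 212 to 218 CPM in the mixture.

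The widest differences among the 10 genes were in those that were silent or nearly silent in Mock, and they took different forms. Sema3b appeared at a high level with the mixture, Sema6d was higher with each mRNA and highest with the mixture, Sema7a and Unc5c came on with IL12 whether or not DRIL18 was there, and Ret was high with IL12 and close to absent with the mixture. Plxnd1 and Nrp1 moved in opposite directions under IL12. The constitutive T cell semaphorin genes Sema4a and Sema4d were lowest in the mixture, and Sema4b was lower in the groups that received IL12. Against Mock, the edgeR quasi-likelihood test with adjustment over all 15777 tested genes called 3 of the 10 genes higher and 3 lower with DRIL18, where 24.3% of all tested genes were called (12.2% higher, 12.1% lower). With IL12 it called 7 higher and 3 lower (46.6% of all tested genes, 23% higher and 23.6% lower), and with the mixture 5 and 5 (63.9%, 32% higher and 31.9% lower). Between the mixture and DRIL18 it called 5 higher and 4 lower (57.3%, 28.3% higher and 29% lower), and between the mixture and IL12 4 and 4 (52.2%, 25.8% higher and 26.3% lower). The departure of the mixture from the sum of the single changes was called in 2 genes upward and 4 downward (31.6%, 14.6% higher and 17.1% lower). Between Mock and NoEp the count was 0 with edgeR (6.98% of all tested genes, 3.34% higher and 3.64% lower), DESeq2 and limma voom, with 2, 1 and 2 genes at an unadjusted p under 0.05. Libraries did not overlap for 4 of the 10 genes between Mock and NoEp (49.1% of all tested genes), 9 between DRIL18 and Mock (60.3%), 10 between IL12 and Mock (71.3%), 10 between the mixture and Mock (80.9%), 10 between the mixture and DRIL18 (77.2%) and 9 between the mixture and IL12 (72.9%). Nothing is read from these counts, since the genes were chosen with the same contrasts known.

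**Figure D1:**
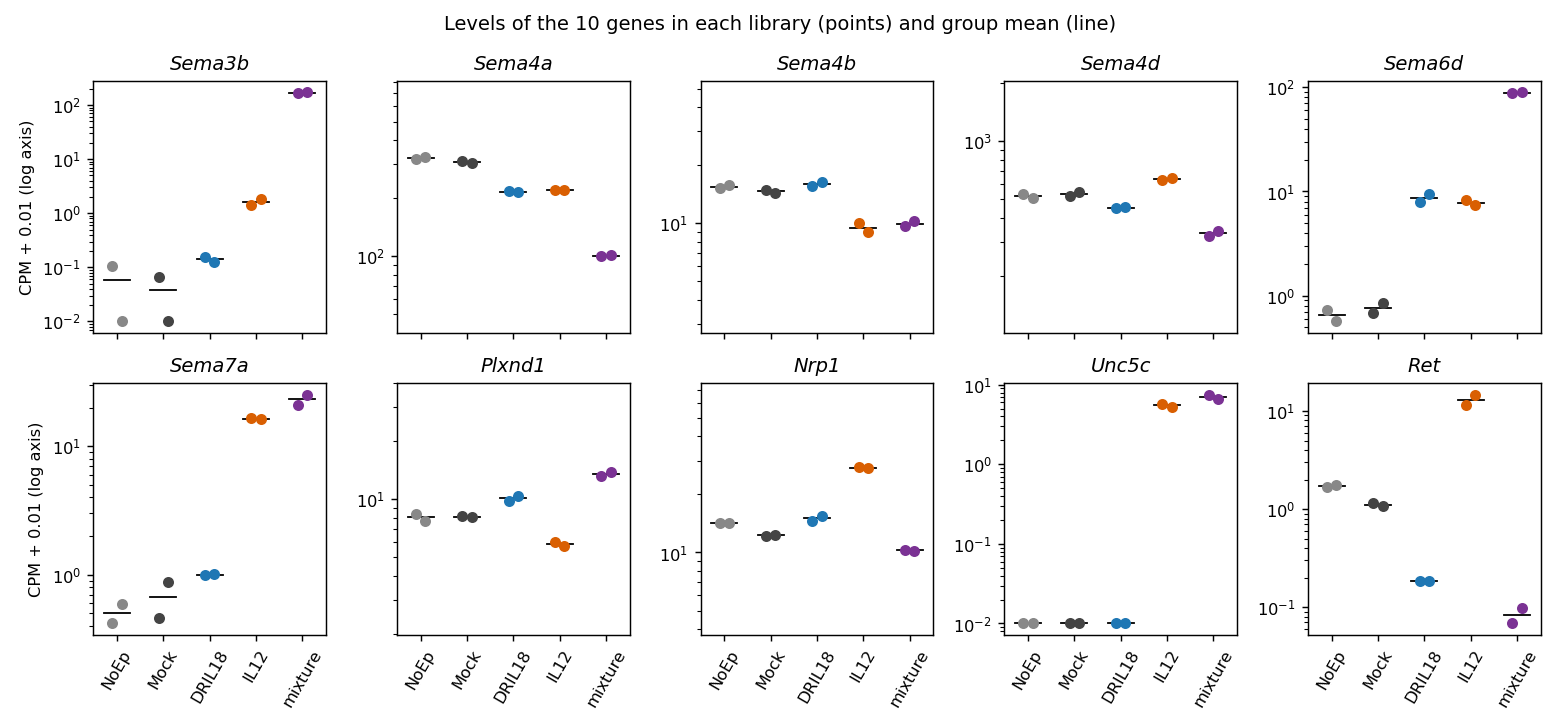
Level of each of the 10 genes (CPM with 0.01 added, log axis, 1 panel per gene with its own range) in the 10 libraries, grouped as NoEp, Mock, DRIL18, IL12 and mixture. Points are libraries and lines are group means. Sema3b reaches 168 and 171 CPM in the mixture, Unc5c has 0 counts outside IL12 and the mixture, and Ret is highest with IL12 and lowest in the mixture.

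Unc5c and Sema7a are shown first with their promoters, because they share a pattern across the groups and each has a single start site in the table of promoters used. The sequences are the 250 bases before the start site, from RefSeq on GRCm38.p6, with every CG in capitals. The Sema7a window is chr9:57939862-57940111 and the Unc5c window is chr3:141465314-141465563, both on the plus strand.

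Sema7a: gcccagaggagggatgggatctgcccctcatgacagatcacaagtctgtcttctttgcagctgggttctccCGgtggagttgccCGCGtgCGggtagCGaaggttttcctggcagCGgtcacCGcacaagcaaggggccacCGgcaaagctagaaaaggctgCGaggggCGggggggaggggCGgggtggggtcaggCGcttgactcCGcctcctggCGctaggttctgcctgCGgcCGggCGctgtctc

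Unc5c: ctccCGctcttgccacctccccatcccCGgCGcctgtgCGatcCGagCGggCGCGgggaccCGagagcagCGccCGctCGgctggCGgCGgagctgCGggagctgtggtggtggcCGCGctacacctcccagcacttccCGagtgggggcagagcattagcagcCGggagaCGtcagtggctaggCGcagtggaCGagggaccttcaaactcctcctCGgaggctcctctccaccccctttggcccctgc

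The Sema7a window holds 17 CG and the Unc5c window 23, against a median of 6 in 32851 promoter windows of the same length, and their GC content is 66.4% and 71.2% against a median of 52.4%. On either strand, neither window holds the letters TTCNNNGAA (the STAT element GAS, found in 7.02% of all windows), an NF-κB motif (1.41%), TGANTCA (AP-1, 6.75%) or GGTGTGA (T-box, 3.33%). Windows were found for 8 of the 10 genes, 15 in all, and the only match among them was 1 AP-1 type match in 1 of the 3 Sema4d windows. These are statements about letters in 250 bases. Sema3b and Ret had no entry.

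Sema7a (ENSMUSG00000038264) encodes a semaphorin held in the membrane by a lipid anchor, which binds integrins as well as plexin C1 and is known on activated T cells. Its level was 0.408 and 0.585 CPM in NoEp, 0.453 and 0.863 in Mock and 0.981 and 1.00 in DRIL18. With IL12 it stood at 16.5 and 16.2 CPM, and in the mixture at 21.0 and 25.2. The libraries of IL12 and the mixture lay far above all others and did not overlap each other, while Mock and NoEp overlapped. The log2 fold change against Mock was 4.64 ± 0.18 (SE, n = 2 and 2) with IL12, a 24.9-fold difference, and 5.14 ± 0.18 with the mixture, 35.2-fold. With DRIL18 it was 0.60 ± 0.30. The Mock libraries hold 16 and 29 counts, so these values move with the library used: without Mock replicate 1 they are 4.24 for IL12 and 0.20 for DRIL18, and without Mock replicate 2 they are 5.17 and 1.13. The mixture differed from the sum of the single changes by -0.10 ± 0.32. That departure is 0.30 without Mock replicate 1 and -0.63 without Mock replicate 2.

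Unc5c (ENSMUSG00000059921) encodes a netrin receptor that mediates repulsion of axons. It had 0 counts in all 6 libraries of NoEp, Mock and DRIL18, which over the 2 Mock libraries allows up to 0.0435 CPM (3 counts, counting error only). IL12 libraries had 177 and 168 counts (5.78 and 5.28 CPM) and mixture libraries 258 and 224 (7.53 and 6.64 CPM). Unc5c was therefore at least 127-fold higher with IL12 than in Mock and at least 163-fold higher with the mixture, with 3 counts set for the group at 0. Between the groups that express it the difference was 0.36 ± 0.18 on the log2 scale, and the libraries did not overlap. Since Mock and DRIL18 were both at 0, no combined effect can be computed for Unc5c. A pair of antisense genes overlaps it, Gm15688 and Gm15689, which stood at 0.0148 CPM or below in every group, and the protein-coding genes on its sides, Pdha2 and Bmpr1b, were at 0 in all 5 groups.

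Sema3b (ENSMUSG00000057969) encodes a secreted semaphorin that signals through neuropilins and is best known as a tumour suppressor gene of lung. It had 3 and 0 counts in NoEp, 2 and 0 in Mock, 5 and 4 in DRIL18 and 43 and 57 with IL12. In the mixture it had 5751 and 5776 counts, or 168 and 171 CPM. The mixture libraries lay far above those with IL12 (1.40 and 1.79 CPM), which lay above those with DRIL18 (0.144 and 0.118 CPM), and only Mock and NoEp overlapped. The ratio of the mixture to Mock was 5846 (95% interval from counting alone 1618 to 48278) and that of IL12 to Mock 55.2 (14.9 to 462), while for DRIL18 it was 4.52 with an interval of 0.936 to 43.0. Against IL12 the mixture was 106-fold higher (6.72 ± 0.10 SE on the log2 scale), and against DRIL18 the log2 difference was 10.30 ± 0.14. The fitted mixture change of 12.34 was the 6th highest of 15777 tested genes. It exceeded the sum of the single changes, 7.66, by 4.68 ± 1.69, but this excess rests on 2 Mock counts: it is 1.55 without Mock replicate 1 and 5.56 without Mock replicate 2.

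Sema6d (ENSMUSG00000027200) encodes a transmembrane semaphorin that binds plexins of the A type and is known to act on late phases of T cell activation. It stood at 0.722 and 0.557 CPM in NoEp and at 0.679 and 0.833 in Mock, where the groups overlapped. With DRIL18 it was at 7.99 and 9.49 CPM and with IL12 at 8.20 and 7.33, also overlapping. The mixture reached 88.5 and 89.1 CPM, above every other library. The log2 fold change against Mock was 3.53 ± 0.17 (SE) with DRIL18, 3.36 ± 0.17 with IL12 and 6.87 ± 0.12 with the mixture, which are 11.5-, 10.2- and 117-fold. The sum of the single changes was 6.88, and the mixture differed from it by -0.01 ± 0.15. For Sema6d the changes of the single mRNAs therefore added up on the log2 scale, within the error of the fit.

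Ret (ENSMUSG00000030110) encodes the signalling receptor for the GDNF family and is known in the gut's nervous system and in some blood cell lineages. It had 53 and 63 counts in NoEp (1.66 and 1.75 CPM) and 40 and 36 in Mock (1.13 and 1.07 CPM). With DRIL18 it had 6 and 6 counts (0.173 and 0.177 CPM), with IL12 351 and 467 (11.5 and 14.7 CPM), and in the mixture 2 and 3 (0.0584 and 0.0890 CPM). No group overlapped its neighbour in the order mixture, DRIL18, Mock, NoEp, IL12. Ret was 11.8-fold higher with IL12 than in Mock (3.57 ± 0.20 SE on the log2 scale), 6.19-fold lower with DRIL18 (-2.63 ± 0.39) and 14.3-fold lower with the mixture (-3.84 ± 0.47). Against IL12 the mixture was 169-fold lower (-7.40 ± 0.31), the lowest of all 15777 fitted changes in that comparison. The sum of the single changes was 0.94, and the mixture differed from it by -4.77 ± 0.76. Between the mixture and DRIL18, with 5 and 12 counts, the difference was -1.21 ± 0.70.

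**Figure D2:**
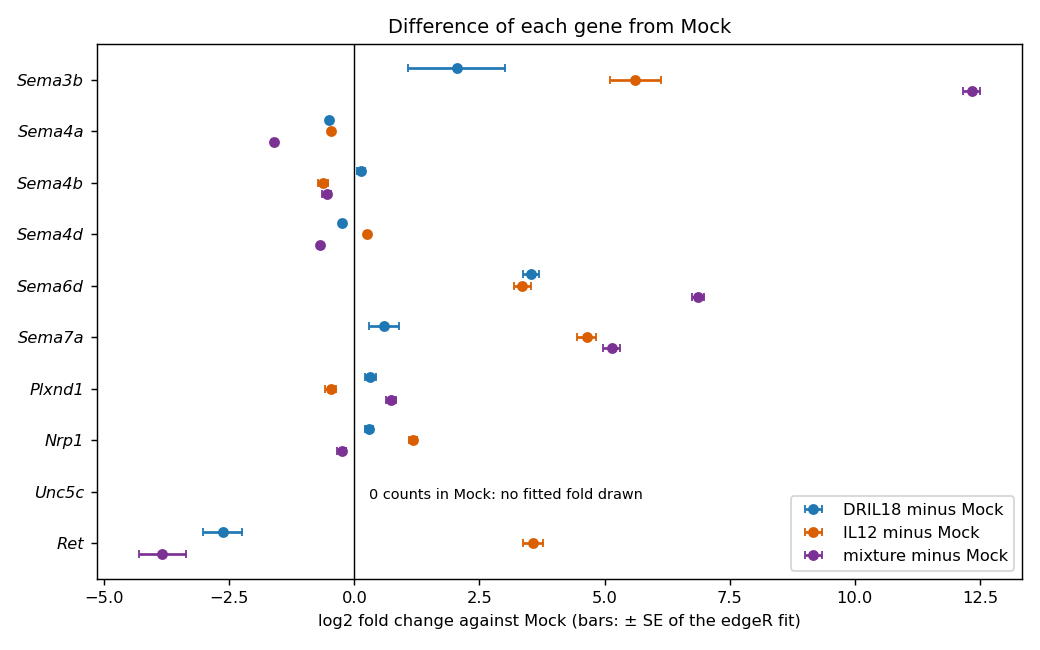
Log2 fold change against Mock (x axis, bars are ± SE of the edgeR fit) of each gene with DRIL18, IL12 and the mixture. Unc5c has 0 counts in Mock and is left without points. Ret lies at 3.57 with IL12 and at -3.84 with the mixture, and Sema6d at 3.53, 3.36 and 6.87.

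Nrp1 (ENSMUSG00000025810) encodes neuropilin-1, a co-receptor for secreted semaphorins and for VEGF that is used as a marker of regulatory T cells from the thymus and of plasmacytoid dendritic cells. It stood at 14.3 and 14.2 CPM in NoEp, 12.2 and 12.3 in Mock, 14.6 and 15.5 in DRIL18, 27.7 and 27.4 with IL12 and 10.3 and 10.2 in the mixture. The IL12 libraries were the highest and the mixture libraries the lowest, with no overlap between any groups. The log2 fold change against Mock was 1.17 ± 0.08 (SE) with IL12, 0.30 ± 0.09 with DRIL18 and -0.26 ± 0.09 with the mixture. The mixture differed from the sum of the single changes by -1.72 ± 0.12. The transcription factor gene Foxp3 of regulatory T cells stood at 1.03 ± 0.107 CPM in Mock (mean ± SD, n = 2), 1.49 ± 0.391 with IL12 and 0.104 ± 0.105 in the mixture, Cd4 at 5.03 ± 0.628, 4.03 ± 0.312 and 5.25 ± 0.453, and Ikzf2 at 19.4 ± 1.75, 7.13 ± 1.19 and 8.34 ± 0.928. The Foxp3 difference between IL12 and Mock did not pass the edgeR test (adjusted p = 0.244). With DRIL18, where Nrp1 was higher than in Mock, Foxp3 was lower (log2 fold change -1.18 ± 0.42 SE, edgeR adjusted p = 0.0391). Ikzf2 was higher there (0.25 ± 0.09, edgeR adjusted p = 0.0359). Siglech, a gene of plasmacytoid dendritic cells, had 0 counts in all libraries. The part of regulatory T cells in the Nrp1 values was not tested, and in bulk RNA fewer cells of a type and less RNA per cell cannot be told apart.

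Plxnd1 (ENSMUSG00000030123) encodes plexin D1, a semaphorin receptor known from vessels and from the migration of thymocytes. It stood at 8.41 and 7.68 CPM in NoEp, 8.18 and 8.09 in Mock, 9.81 and 10.4 in DRIL18, 6.01 and 5.69 with IL12 and 13.2 and 13.9 in the mixture. NoEp and Mock overlapped, IL12 lay below them, and DRIL18 and then the mixture lay above. Against Mock the log2 difference was 0.31 ± 0.11 (SE) with DRIL18, -0.48 ± 0.12 with IL12 and 0.74 ± 0.11 with the mixture, which is 0.90 ± 0.16 above the sum of the single changes. Adding IL12 to DRIL18 was thus followed by a higher level (0.42 ± 0.10) and IL12 alone by a lower one.

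Sema4d (ENSMUSG00000021451) encodes CD100, a transmembrane semaphorin carried by resting and activated T cells that binds plexins of the B type and, on B cells, CD72. It stood at 533 and 508 CPM in NoEp, 519 and 544 in Mock, 449 and 452 in DRIL18, 628 and 640 with IL12 and 323 and 339 in the mixture. NoEp and Mock overlapped, IL12 was the highest and the mixture the lowest. Its log2 fold change against Mock was 0.25 ± 0.04 (SE) with IL12, -0.24 ± 0.04 with DRIL18 and -0.68 ± 0.04 with the mixture, and the mixture differed from the sum of the single changes by -0.70 ± 0.05. The next protein-coding gene, Gadd45g, differed from it in pattern, with 21.5 CPM in Mock, 185 with IL12 and 221 in the mixture.

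Sema4a (ENSMUSG00000028064) encodes a transmembrane semaphorin of T cells and dendritic cells that is known for its part in T cell priming. It stood at 318 and 325 CPM in NoEp, 310 and 303 in Mock, 217 and 215 in DRIL18, 221 and 222 with IL12 and 99.8 and 101 in the mixture. The libraries of DRIL18 and IL12 were close but did not overlap, and the mixture lay below all others. The log2 fold change against Mock was -0.51 ± 0.04 (SE) with DRIL18, -0.47 ± 0.04 with IL12 and -1.61 ± 0.04 with the mixture, a level 3.06-fold lower. Its departure from the sum of the single changes was -0.63 ± 0.05. Genes of dendritic cells, which also express Sema4a, summed to 9.03 to 9.52 CPM in Mock, 22 to 23.3 with IL12 and 10.4 to 10.7 in the mixture. The sums came mostly from Xcr1 and Itgax, with Clec9a and Siglech at 0 in these groups. These genes went different ways against Mock. Xcr1 rose with IL12 (2.20 ± 0.12) and with the mixture (0.83 ± 0.13), while Itgax fell (-1.95 ± 0.25 and -3.82 ± 0.32). Zbtb46 rose with the mixture (2.78 ± 0.43). The part of dendritic cells in the Sema4a values was not tested.

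Sema4b (ENSMUSG00000030539), a relative of Sema4a and Sema4d, stood at 15.2 and 15.8 CPM in NoEp, 14.9 and 14.3 in Mock, 15.6 and 16.4 in DRIL18, 9.997 and 8.97 with IL12 and 9.66 and 10.2 in the mixture. IL12 and the mixture overlapped each other and lay below the other 3 groups. The log2 fold change against Mock was -0.63 ± 0.10 (SE) with IL12 and -0.56 ± 0.09 with the mixture, while that of DRIL18 was 0.13 ± 0.09. The mixture differed from the sum of the single changes by -0.06 ± 0.13.

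**Figure D3:**
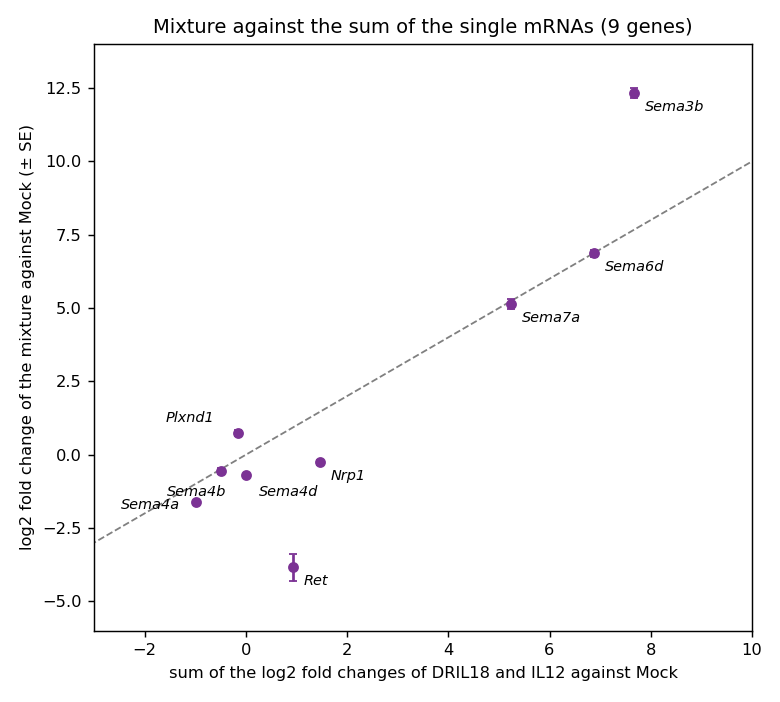
Mixture-to-Mock log2 difference (y axis, bars are ± SE) plotted over the added log2 differences of DRIL18 and of IL12 from Mock (x axis) for 9 genes. Unc5c is left out because Mock and DRIL18 are at 0. The dashed line marks equality. Sema6d, Sema4b and Sema7a lie -0.01 ± 0.15, -0.06 ± 0.13 and -0.10 ± 0.32 (SE of the departure, not drawn) from the line. Sema3b and Plxnd1 lie above it, and Ret, Nrp1, Sema4d and Sema4a below.

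To compare the genes with each other, CPM were divided by the length of their merged exons in GENCODE M21 (GRCm38, a different build from the one used for counting). On this scale of CPM per kb of exon, Sema4d (69.3) and Sema4a (56.8) were the highest of the 10 genes in Mock, followed at a distance by Sema4b (2.59) and Nrp1 (1.25). In the mixture Sema4d was still first (43.1), and Sema3b was second (35.5), above Sema4a (18.6), Sema6d (8.41) and Sema7a (7.02). With IL12 alone the order after Sema4d (82.5) and Sema4a (40.9) was Sema7a (4.97), Nrp1 (2.81) and Ret (1.93). Unc5c stayed low on this scale in the groups that express it, at 0.289 with IL12 and 0.370 in the mixture.

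**Figure D4:**
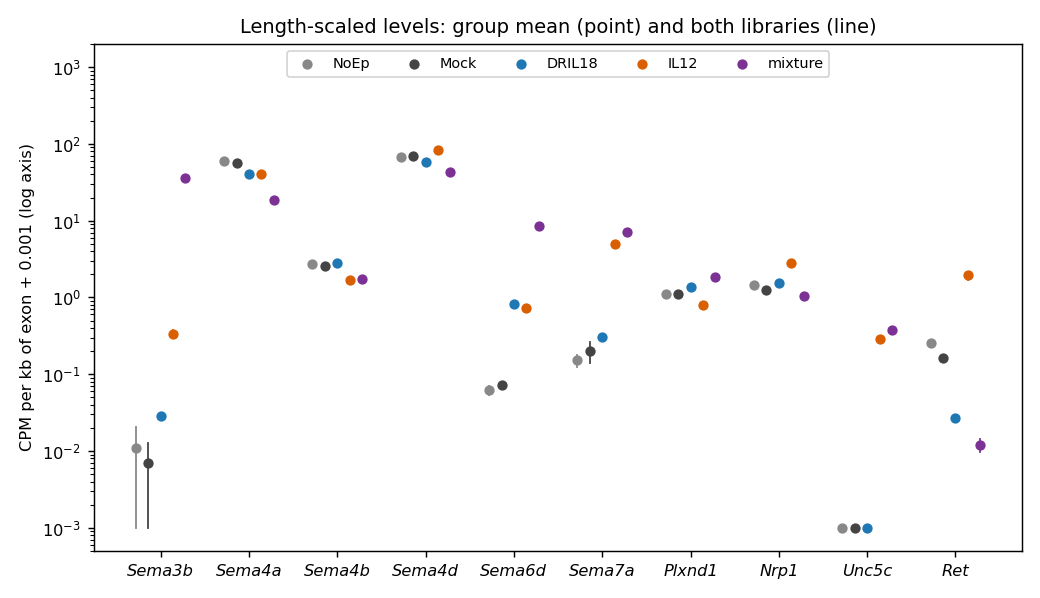
Length-scaled level of the 10 genes (CPM per kb of merged exon with 0.001 added, log axis) in the 5 groups. Points are group means and lines join the 2 libraries. Sema4d and Sema4a lead in Mock at 69.3 and 56.8, and Sema3b moves from 0.00592 in Mock to 35.5 in the mixture.

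For the 5 genes whose group means spanned at least 2 on the log2 scale, the genes with the most similar set of 4 differences from Mock (NoEp, DRIL18, IL12, mixture) were sought among all tested genes with at least 1 CPM in their highest group. Sema7a was closest to Furin, a protease gene, with a root mean square difference of 0.38 on the log2 scale, and to the kinase gene Fes (0.58). Furin stood at 75.6 CPM in Mock, 102 in DRIL18, 2304 with IL12 and 3790 in the mixture. Sema6d was closest to the chemokine gene Cxcl10 (0.49), which stood at 0.509, 6.39, 3.61 and 34.4 CPM in the same groups, and to Kcna4 (0.65). Ret had no close match, with Timp2 at 1.24 and Dnah12 at 1.32. The nearest genes of Sema3b, Mylk2 (1.03) and Mmp13 (1.23), and of Unc5c, P2rx3 (1.06) and Gm49751 (1.71), were found from fitted changes that depend on the prior count, since Mock counts of Sema3b, Mylk2, Mmp13 and Unc5c are at or near 0.

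To see what the rest of the guidance families did, 80 further genes of semaphorins, plexins, neuropilins, netrins and their receptors, Slit and Robo, ephrins and Eph receptors, and GDNF ligands and co-receptors were listed by family membership. Of these, 29 had enough counts to be tested, and none of the other 51 had more than 69 counts over all 10 libraries. With DRIL18, 3 of the 29 were higher (12.2% of all tested genes were) and 3 lower (12.1%), a count of 6 that falls to 2 without Mock replicate 1 and to 3 without DRIL18 replicate 1. With IL12, 3 were higher (23% of all genes) and 8 lower (23.6%). With the mixture, 10 were higher (32%) and 7 lower (31.9%), and the median log2 fold change of the 29 was 0.44 against -0.0021 for all tested genes. Counting only called genes with a change of at least 2-fold in the fit, there were 2 of the 29 with DRIL18 (1.91% of all tested genes), 7 with IL12 (8.93%) and 14 with the mixture (19.8%). The filter on low counts admits genes that are high in a single group, such as Gfra2 (3 counts in Mock, 46 in the mixture). Nothing is therefore read from the median or from these counts.

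Among the 14 other semaphorin genes, 7 were tested. Sema4f, a transmembrane semaphorin gene of the same subfamily as Sema4d, rose with IL12 from 38.8 ± 2.82 to 79.3 ± 2.39 CPM (mean ± SD, n = 2; log2 fold change 1.03 ± 0.06 SE, edgeR adjusted p = 2.62e-15), and stood at 41.1 ± 1.22 in the mixture. Sema6b fell with IL12 (-0.68 ± 0.15, adjusted p = 0.000463) and with the mixture (-1.23 ± 0.16, adjusted p = 6.76e-08). Sema6c fell with the mixture (-1.69 ± 0.31, adjusted p = 1.72e-05), and Sema4c with IL12 (-1.22 ± 0.26, adjusted p = 0.000217). The fall of Sema6c with IL12 (-0.95, adjusted p = 0.00712) is lost without Mock replicate 1 (-0.87, adjusted p = 0.0568) or IL12 replicate 1 (-0.60, adjusted p = 0.147). That of Sema4c with the mixture (-0.65, adjusted p = 0.0178) is lost without Mock replicate 2 (-0.52, adjusted p = 0.134) or mixture replicate 1 (-0.46, adjusted p = 0.175).

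Receptors for semaphorins moved in different directions. Of 9 other plexin and neuropilin genes 6 were tested, and 3 rose with the mixture against Mock: Plxna1, a receptor gene for Sema6d, from 7.70 ± 0.640 to 23.7 ± 0.0518 CPM (mean ± SD, n = 2; 1.62 ± 0.10 SE, edgeR adjusted p = 6.17e-15), Plxnb2 from 1.46 to 5.27 CPM (1.84 ± 0.22, adjusted p = 9.9e-09) and Plxna3 from 0.748 to 2.25 CPM (1.59 ± 0.35, adjusted p = 0.000228, and 0.0532 with the mark bis as a covariate). Plxnc1, the plexin receptor gene for Sema7a, fell from 59.4 ± 2.87 CPM in Mock to 29.2 ± 0.0549 with IL12 (-1.02 ± 0.06, adjusted p = 1.79e-15) and to 42.0 ± 0.711 in the mixture (-0.50 ± 0.06, adjusted p = 2.44e-09). Itga1, which encodes a subunit of the integrin that binds Sema7a, fell from 3.68 ± 0.158 to 0.338 ± 0.1003 CPM with the mixture (-3.43 ± 0.31, adjusted p = 3.17e-11). Itga1 also fell with DRIL18 (-1.73 ± 0.25, adjusted p = 3.55e-06) and with IL12 (-0.93 ± 0.23, adjusted p = 0.00156). The integrin gene Itgb1 did not pass with the mixture (0.03 ± 0.04, adjusted p = 0.517). It was higher with DRIL18 (0.48 ± 0.04, adjusted p = 6.08e-12) and lower with IL12 (-0.31 ± 0.04, adjusted p = 1.91e-08). Cd72, the B cell receptor gene for Sema4d, fell from 14.8 ± 0.746 to 3.54 ± 0.0266 CPM with IL12 (-2.06 ± 0.12, adjusted p = 1.87e-15) and stood at 14.4 ± 1.20 in the mixture. B cell genes, given above, moved beside it with smaller differences, and their part in Cd72 was not tested.

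Of 18 other genes of the netrin system 6 were tested. The netrin receptor genes Unc5a and Unc5b, close relatives of Unc5c, went the other way. Unc5a fell from 10.7 ± 0.0543 CPM in Mock to 7.12 ± 0.236 with IL12 (mean ± SD, n = 2; -0.59 ± 0.11 SE, edgeR adjusted p = 7.7e-05) and 2.59 ± 0.0700 in the mixture (-2.04 ± 0.13, adjusted p = 1.12e-14). Unc5b fell from 3.72 ± 0.341 to 0.578 ± 0.106 with IL12 (-2.68 ± 0.28, adjusted p = 2.49e-09) and 0.396 ± 0.141 in the mixture (-3.22 ± 0.30, adjusted p = 5.13e-11). Ntng2, which encodes a netrin anchored in the membrane, rose with the mixture from 9.98 ± 0.229 to 23.8 ± 3.07 CPM (1.26 ± 0.10, adjusted p = 7.02e-13). Dscam had 3 counts over both Mock libraries, 0 with IL12, 32 with DRIL18 and 61 in the mixture. Its ratio to Mock was 20.6 in the mixture (95% counting interval 6.73 to 103) and 10.7 with DRIL18 (3.35 to 54.7). The Dscam call with DRIL18 (3.31 ± 0.81 SE on the log2 scale, edgeR adjusted p = 0.00272) is lost without Mock replicate 1 (2.89, adjusted p = 0.0602) or DRIL18 replicate 1 (2.66, adjusted p = 0.0837).

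Other guidance genes that passed with the mixture were at low levels in Mock. Robo3, a receptor gene of the Slit system, stood at 0.217 ± 0.0539 CPM in Mock and 4.21 ± 0.296 in the mixture (mean ± SD, n = 2; 4.25 ± 0.39 SE, edgeR adjusted p = 5.02e-11). Epha2 stood at 0.260 ± 0.0729 and 2.83 ± 0.489 (3.42 ± 0.44, adjusted p = 4.98e-08), and the ephrin gene Efnb2 at 0.565 ± 0.0416 and 2.03 ± 0.560 (1.84 ± 0.34, adjusted p = 2.45e-05). Ephb6 fell from 6.40 ± 0.390 to 3.62 ± 0.460 CPM (-0.82 ± 0.16, adjusted p = 3.34e-05). Among the RET partners only Gfra2, a co-receptor gene, was tested, with 3 counts over both Mock libraries, 0 in DRIL18, 3 with IL12 and 46 in the mixture.

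**Figure D5:**
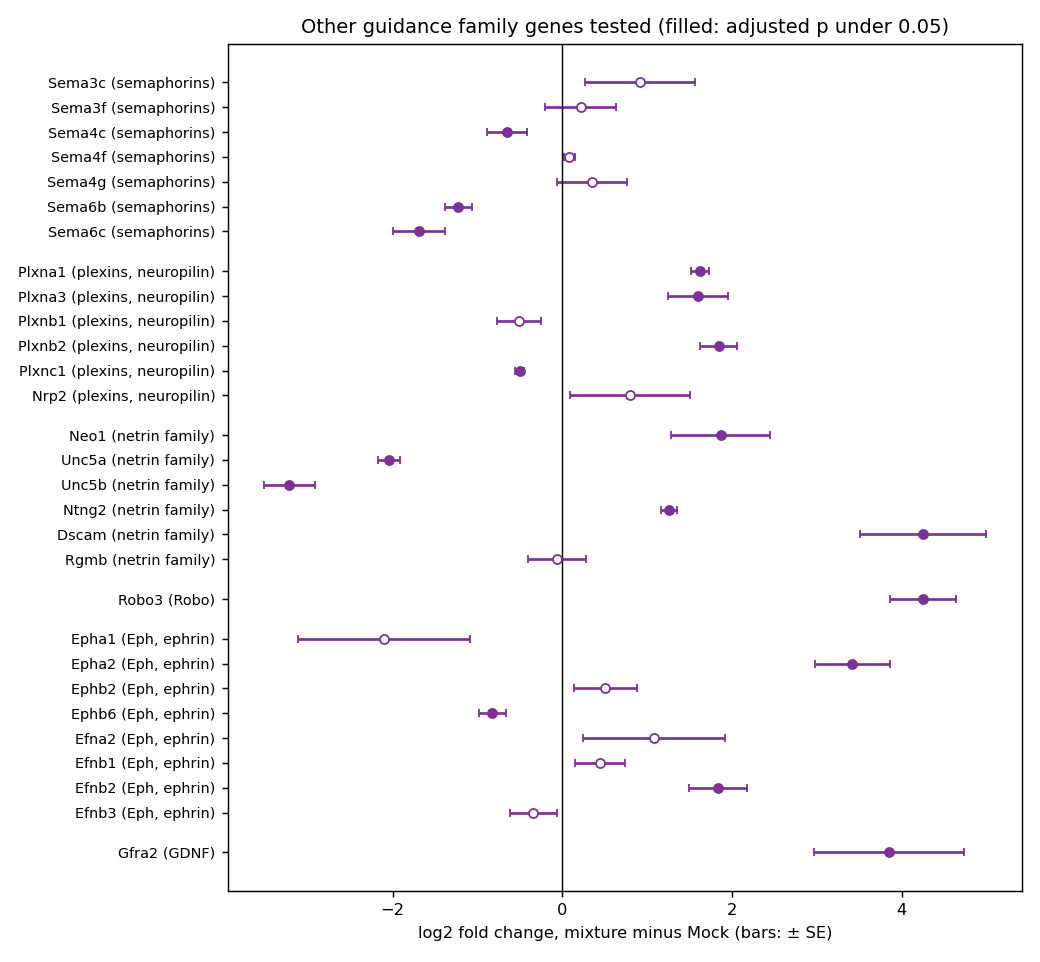
Mixture-to-Mock log2 difference (x axis, bars are ± SE) of the 29 tested genes of the guidance families outside the 10 genes. Filled points have an edgeR adjusted p under 0.05: 10 lie to the right of 0 and 7 to the left. Unc5a and Unc5b lie at -2.04 and -3.22 and Plxna1 at 1.62.

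Cytoplasmic partners of plexins and neuropilins were mostly expressed, with 22 of 25 tested. With IL12, 5 were higher (23% of all tested genes) and 9 lower (23.6%), and with the mixture 9 were higher (32%) and 12 lower (31.9%). Fes, a kinase that binds plexin A1 and collapsin response proteins, rose from 3.83 ± 0.193 CPM in Mock to 146 ± 4.43 with IL12 (mean ± SD, n = 2; 5.25 ± 0.08 SE, edgeR adjusted p = 1.31e-30) and 194 ± 1.67 in the mixture (5.66 ± 0.08, adjusted p = 5.44e-32). Mical2, which encodes an actin-oxidising enzyme downstream of plexins, fell from 4.93 ± 0.196 to 0.751 ± 0.154 CPM in the mixture (-2.71 ± 0.23, adjusted p = 8.31e-12), and Crmp1, a collapsin response gene, from 31.5 ± 2.91 to 9.64 ± 0.626 (-1.71 ± 0.09, adjusted p = 9.19e-17). Arhgef11, whose product binds plexins of the B type, fell more with IL12 (-1.60 ± 0.16, adjusted p = 1.19e-09) than with the mixture (-0.69 ± 0.15, adjusted p = 0.000126), and the difference between the mixture and IL12 passed the test (0.91 ± 0.17, adjusted p = 4.36e-05).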

How the data were processed

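Messenger RNA of 10 libraries in 5 groups was sequenced after a stranded poly(A) preparation, per the labels' protocols. STAR 2.7.9, featureCounts and the build mm39 are named in the submitters' processing notes, and no source used here states the strand setting of the counting, so reads of a gene and of an antisense partner cannot be told apart. The authors deposited raw counts per gene and a table of normalized log2 values for 13225 genes, which was used only to see whether the genes are in it. From the counts, edgeR 4.0.16 (R 4.3.3) was run with TMM factors, its default filter on low counts, 1 mean per group over all 10 libraries, and the quasi-likelihood test with Benjamini-Hochberg adjustment at 0.05. SE is the absolute log2 fold change divided by the square root of F. Of the 55359 ids in the counts, 3276 had no gene symbol. These were left out of the fit only where the filter on low counts removed them. Replicates differed by more than sampling noise, with a chi-square per degree of freedom between 2.65 and 5.13. Intervals (95%) and the floor of 3 counts cover counting error only.

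The 10 genes and all gene lists were chosen with earlier results of these data known. Of each other list, up to 4 genes past the test with the largest absolute log2 fold changes in a comparison could be named, and marker genes were named as a check of cell types. Alternatives were other scalings (RLE size factors, none), no filter, DESeq2 1.42.0, limma voom (limma 3.58.1), a replicate block, the mark "bis" of 6 columns as a covariate, and leaving out each library. Both NoEp and both mixture libraries carry this mark, as does replicate 2 of DRIL18 and of IL12, and no Mock library does. Its meaning is not stated. Between Mock and NoEp, and between Mock and the mixture, it falls together with the group. With the covariate, the genes called between the mixture and Mock went from 10081 to 8486. The script was tested on simulated data. The summed level of 1 marker list is not reported here.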

Additional observations from a re-analysis of the deposited data

Results flagged for a closer look

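Sema4d, Plxnd1, Nrp1 and Ret stand out because adding IL12 went opposite ways without and with DRIL18 in every library. For Nrp1, adding DRIL18 also went opposite ways. Its level was higher with DRIL18 than in Mock (0.30 ± 0.09 SE) and lower in the mixture than with IL12 (-1.42 ± 0.08). Libraries that do not overlap are common here. They were found for 71.3% of all tested genes between IL12 and Mock and for 77.2% between the mixture and DRIL18. The shares were 60.3% between DRIL18 and Mock and 72.9% between the mixture and IL12. The share of all genes with opposite directions was not counted. For Ret, the difference between the mixture and DRIL18 rests on 5 and 12 counts (-1.21 ± 0.70 SE). The mixture departed from the sum of the single log2 changes by -0.70 for Sema4d, 0.90 for Plxnd1, -1.72 for Nrp1 and -4.77 for Ret. These 4 genes were chosen with the difference known, so it is given as a description with no p-value.

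In 10 of the 29 other guidance genes tested, 8 upward and 2 downward, the departure itself passed the edgeR test, with 2 libraries per group (31.6% of all tested genes passed). It was positive for Plxna1 (1.22, adjusted p = 1.65e-07), Ntng2 (1.02, adjusted p = 1.16e-06), Plxnc1 (0.52, adjusted p = 6.74e-06) and Plxnb2 (1.26, adjusted p = 0.00328), and negative for Sema4f (-0.67, adjusted p = 3.5e-07) and Unc5a (-1.12, adjusted p = 1.06e-05). Gfra2 also passed (edgeR adjusted p = 0.0231), but DRIL18 is at 0 counts there and no fitted size is given. The other 3 depend on single libraries in edgeR. Epha2 (2.92, adjusted p = 0.0034) is lost without Mock replicate 1 (2.60, adjusted p = 0.057). Robo3 (2.03, adjusted p = 0.0206) is lost without Mock replicate 1 (1.75, adjusted p = 0.167), DRIL18 replicate 1 (1.82, adjusted p = 0.065), IL12 replicate 2 (1.48, adjusted p = 0.0921) or mixture replicate 2 (1.96, adjusted p = 0.0515). Sema4c (1.06, adjusted p = 0.0232) is lost without Mock replicate 2 (0.92, adjusted p = 0.0907), DRIL18 replicate 1 (1.05, adjusted p = 0.0518), IL12 replicate 1 (0.87, adjusted p = 0.0921) or mixture replicate 2 (0.84, adjusted p = 0.133).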

How the results depend on the processing

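Of 29 tested genes of the guidance families outside the 10 genes, the number called moved with the setting as follows. For Mock against NoEp it was 1, and 0 with the mark bis as a covariate, with 0 to 1 when single libraries were left out. The count over all genes there was 1102, 172 with that covariate and as low as 242 with a library left out. For DRIL18 against Mock it was 6, and 2 to 6 with single libraries left out, and over all genes 3832 and as low as 2525. The ranges over left-out libraries were 9 to 12 for IL12 against Mock, 16 to 18 for the mixture against Mock, 14 to 18 against DRIL18, 13 to 15 against IL12, and 7 to 10 for the departure from the sum. Efna2 with IL12 (1.91, edgeR adjusted p = 0.0433) turned to -0.042 without IL12 replicate 1 and ranged up to 3.91. The cause was not tested.

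Replicate numbers did not pair the libraries, with correlations of deviations between -0.0318 and 0.0493 over 10 pairs of groups. With the replicate block the family counts were 1, 6, 10, 17, 17, 14 and 10, in the order given above, and the count over all genes for DRIL18 against Mock was 3814 in place of 3832. Values of Sema3b, Sema7a and Ret against groups with few counts are limited by depth.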

Other observations

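Adaptors and effectors of RET were mostly expressed, with 13 of 16 listed genes tested. With IL12, 0 were higher (23% of all tested genes) and 9 lower (23.6%), and with the mixture 2 were higher (32%) and 6 lower (31.9%). Plcg1, a phospholipase used by RET and by the T cell receptor, fell from 283 CPM in Mock to 96.6 in the mixture (-1.55 ± 0.04 SE, edgeR adjusted p = 3.23e-25, n = 2 and 2). The adaptor gene Grb7 fell (-1.27 ± 0.21, edgeR adjusted p = 3.44e-06) and Grb10 rose (2.03 ± 0.40, edgeR adjusted p = 5.23e-05) in the same comparison.

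Genes beside the 10 were at other levels. Ifrd2, next to Sema3b, stood at 35.8 CPM in Mock and 87.0 in the mixture, and Gnai2 on its other side at 832 and 718. Slc24a5, next to Sema6d, stood at 1.505 CPM in Mock and 7.51 in the mixture.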
